A study of Homo sapiens with 12 samples.

Results

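PSMB8, PSMB9 and PSMB10 encode the catalytic subunits of the immunoproteasome, and PSME1 and PSME2 encode the alpha and beta subunits of PA28, a ring-shaped activator that caps the proteasome. All 10 probes annotated to these 5 genes were taken, of 48803 probes on the array, and the 5 genes stood among 18665 symbols. Of the 10 probes, 9 had signal above background on all 3 arrays of at least 1 group and were tested. Probes were taken by gene name, but the 5 genes were chosen with earlier results of these data known.

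RNA was measured on 12 single-colour Illumina Human-WG6 arrays, 1 for each culture, in 4 groups of 3 biological replicates. All cells were SW-13, an established human adrenal carcinoma line that lacks the SWI/SNF ATPase BRG1, and all were transduced with adenovirus. Ad-BRG1 cells expressed a GFP-BRG1 fusion protein, with the virus titrated to the BRG1 level of HeLa cells, and Ad-GFP cells expressed GFP alone. Either culture was stimulated with IFNγ for 6 h or left untreated, which gave Ad-BRG1 IFNγ, Ad-BRG1 untreated, Ad-GFP IFNγ and Ad-GFP untreated cells. The model is therefore 1 cell line with virus-driven BRG1, and every difference named for BRG1 is between the 2 viruses.

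The proteasome degrades ubiquitinated proteins in a barrel-shaped core whose beta rings hold the proteolytic sites. IFNγ, a cytokine secreted by T cells and natural killer cells, induces PSMB8, PSMB9 and PSMB10, which replace the constitutive subunits PSMB5, PSMB6 and PSMB7 in newly assembled cores and alter the peptides that reach MHC class I molecules. PA28 opens the gate of the core without using ATP or ubiquitin. IRF1 is a well known activator of these genes after IFNγ.

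The windows around the transcription start sites are shown because 4 of the 5 genes share a short sequence there. Whether it bears on their responses was not tested. Each runs from 250 bases before to 50 bases after an annotated start, taken from RefSeq on GRCh38.p14, and is written 5′ to 3′ on the strand of its gene. All 5 genes had a window, PSMB8 with 2 starts. Capitals mark matches to GAAAGCGAAAGC, a repeat of the kind bound by interferon regulatory factors or to the shorter GAAANNGAAA. TAP1, which encodes a chain of the peptide transporter, is added because it lies head to head with PSMB9, with 488 bases between the starts.
PSMB8 second start (chr6:32843998-32844297, - strand): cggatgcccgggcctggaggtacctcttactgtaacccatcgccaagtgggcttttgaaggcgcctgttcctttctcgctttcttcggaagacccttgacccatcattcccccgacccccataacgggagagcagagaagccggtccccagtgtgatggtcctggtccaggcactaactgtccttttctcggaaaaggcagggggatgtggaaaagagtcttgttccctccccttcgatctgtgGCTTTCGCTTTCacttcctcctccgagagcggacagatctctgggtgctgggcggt
PSMB9 (chr6:32853942-32854241, + strand): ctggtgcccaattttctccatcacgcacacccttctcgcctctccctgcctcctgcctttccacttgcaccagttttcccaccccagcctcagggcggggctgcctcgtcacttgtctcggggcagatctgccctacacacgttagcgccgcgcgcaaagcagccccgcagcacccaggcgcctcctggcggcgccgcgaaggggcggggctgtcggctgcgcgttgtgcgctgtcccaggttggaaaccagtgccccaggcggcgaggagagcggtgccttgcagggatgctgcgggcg
TAP1 first start (chr6:32853655-32853954, - strand): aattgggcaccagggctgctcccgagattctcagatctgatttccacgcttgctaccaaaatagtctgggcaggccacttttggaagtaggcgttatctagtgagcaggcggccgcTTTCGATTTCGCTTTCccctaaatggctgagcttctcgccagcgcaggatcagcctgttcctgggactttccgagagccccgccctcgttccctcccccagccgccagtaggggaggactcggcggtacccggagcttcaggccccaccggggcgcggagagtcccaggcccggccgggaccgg
PSMB10 (chr16:67936801-67937100, - strand): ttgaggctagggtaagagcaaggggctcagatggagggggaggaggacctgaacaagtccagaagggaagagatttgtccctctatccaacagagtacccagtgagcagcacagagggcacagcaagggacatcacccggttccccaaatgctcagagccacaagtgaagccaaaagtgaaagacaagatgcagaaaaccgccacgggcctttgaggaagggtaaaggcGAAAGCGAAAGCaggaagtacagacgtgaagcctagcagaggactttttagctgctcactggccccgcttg
PSME1 (chr14:24135944-24136243, + strand): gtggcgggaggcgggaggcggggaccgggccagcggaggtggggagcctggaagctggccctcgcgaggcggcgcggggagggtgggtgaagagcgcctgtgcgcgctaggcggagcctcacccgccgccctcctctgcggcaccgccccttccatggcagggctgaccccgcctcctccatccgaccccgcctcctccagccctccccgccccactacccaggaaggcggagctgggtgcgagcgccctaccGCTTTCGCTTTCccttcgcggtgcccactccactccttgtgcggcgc
PSME2 (chr14:24146561-24146860, - strand): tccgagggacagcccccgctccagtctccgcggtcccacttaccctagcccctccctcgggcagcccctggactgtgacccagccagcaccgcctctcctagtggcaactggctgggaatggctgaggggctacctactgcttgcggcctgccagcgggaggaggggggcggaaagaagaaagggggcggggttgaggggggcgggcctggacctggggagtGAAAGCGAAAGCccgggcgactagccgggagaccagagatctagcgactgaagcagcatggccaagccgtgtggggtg
The 12-letter repeat lay within 28 bases of the start in PSMB8, PSMB10, PSME1 and PSME2. It ran from base -6 to 6 of the second PSMB8 start and from base 4 to 15 of PSME1, on the opposite strand to the gene. In PSMB10 it ran from base -21 to -10 and in PSME2 from -28 to -17, on the strand of the gene. It was in neither the PSMB9 window nor that of the first PSMB8 start. Both strands were searched, and 17 of 35116 windows (0.0484%) held it. It is the longest word shared, on either strand, by windows of at least 4 of the 5 genes, and since it was taken from these windows its presence there is a description.

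The shorter GAAANNGAAA, which lies inside the longer repeat, was in 3.57% of all windows. The PSMB9 window held no match, and the TAP1 window on the other side of the shared interval held 2 overlapping ones, from base -134 to -125 and from -128 to -119. A match is not a measured binding site.

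The arrays had a raw mean intensity of 539.9 to 666 and 15741 to 16828 probes with a detection p under 0.05. The 3 Ad-BRG1 IFNγ arrays had raw means among the lowest, 539.9 to 571.1. The raw means were 611.7 to 643.5 in Ad-BRG1 untreated cells, 570.7 to 650.0 in Ad-GFP IFNγ cells and 627.2 to 666 in Ad-GFP untreated cells. The part of this in the results was not tested, and quantile normalization preceded every comparison below. Levels are log2 intensities after background correction and normalization, comparable between arrays for 1 probe but not between probes. The lowest level among detected probes, used as a floor, was 5.35 to 5.44. Of 8 adrenal cortex markers, 2 were detected on any array, and NR5A1, STAR, CYP17A1, CYP11B1, HSD3B2 and MC2R on none. The SMARCA4 probe, which reads the gene of BRG1, gave 8.62 ± 0.20 in Ad-BRG1 IFNγ cells, 8.51 ± 0.09 in Ad-BRG1 untreated cells, 8.64 ± 0.06 in Ad-GFP IFNγ cells and 8.70 ± 0.12 in Ad-GFP untreated cells (SD, n = 3), so it does not check the virus labels.

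**Figure D1:**
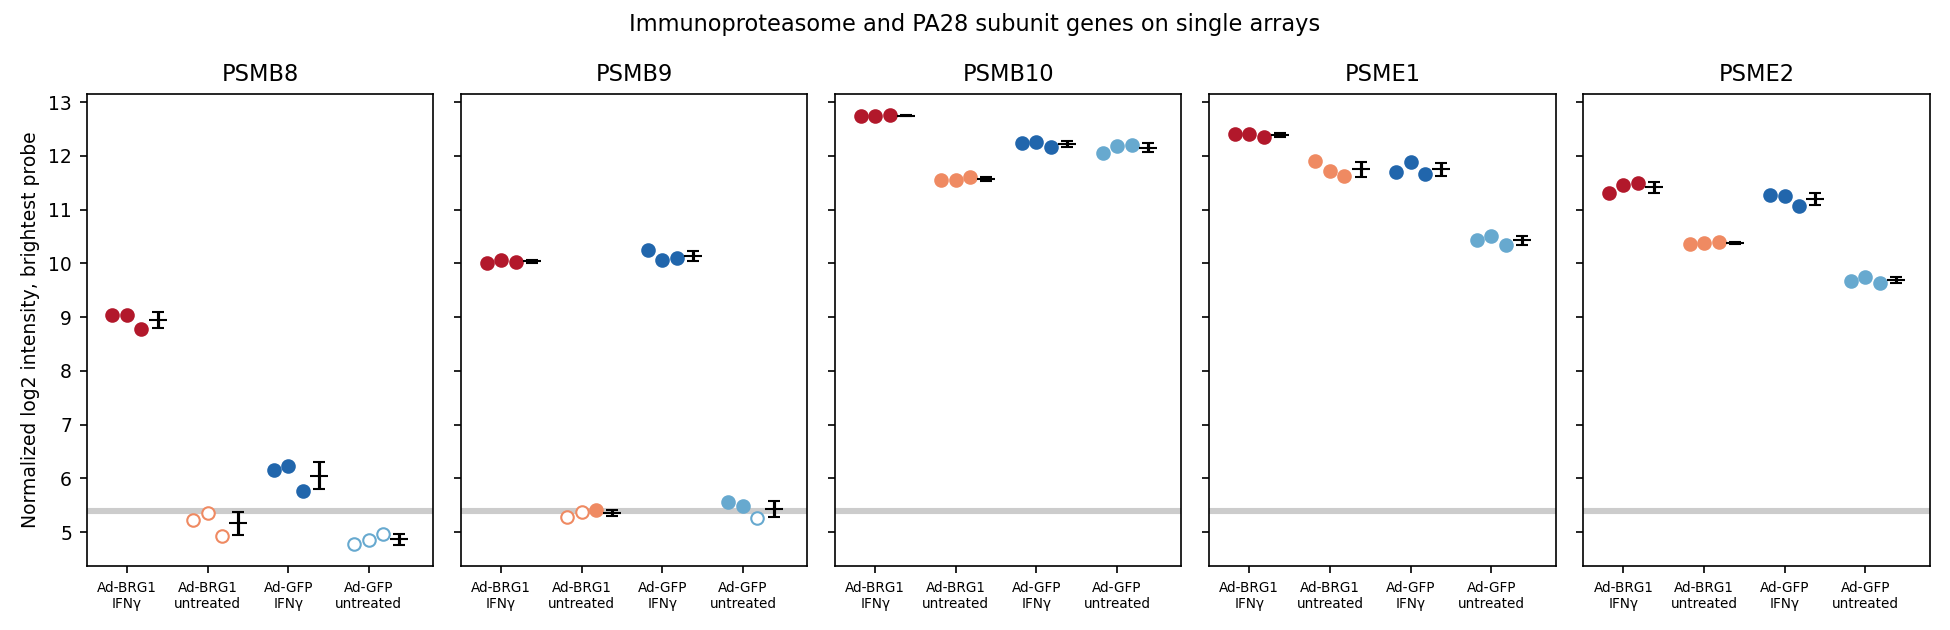
Normalized log2 intensity (y axis) of the brightest probe of each gene on each of the 12 arrays, by group (x axis); bars are mean ± SD of 3 arrays, open points had a detection p of 0.05 or more, and the grey band is the range of the floor. PSMB8 stands highest in Ad-BRG1 IFNγ cells, PSMB9 lies between 10.01 and 10.24 in both IFNγ groups, PSMB10 is lowest in Ad-BRG1 untreated cells, and PSME1 and PSME2 are lowest in Ad-GFP untreated cells.

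PSMB8, the subunit with chymotrypsin-like activity, was induced by IFNγ in both cell states and far more strongly with BRG1. Its brightest probe, ILMN_2390299, read 9.03, 9.05 and 8.78 in Ad-BRG1 IFNγ cells and 5.22, 5.35 and 4.93 in Ad-BRG1 untreated cells. In Ad-GFP IFNγ cells it read 6.16, 6.23 and 5.76, against 4.78, 4.85 and 4.97 in Ad-GFP untreated cells. The 3 arrays of each IFNγ group were detected and lay above every untreated array, and no untreated array was detected. The ranges of the 2 IFNγ groups were apart, while those of the 2 untreated groups overlapped and neither had a measured level. Over all 10333 genes, the 2 IFNγ groups were apart for 65.3% and the 2 untreated groups for 62.8%. IFNγ and untreated arrays were apart for 42.9% of genes in Ad-BRG1 cells and 28.1% in Ad-GFP cells.

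In Ad-BRG1 cells IFNγ raised PSMB8 by 3.79 on the log2 scale (SE 0.14, limma adjusted p = 4.08e-10), at least 11.9-fold. In RNA from whole cultures, fewer expressing cells and less RNA per cell cannot be told apart. In Ad-GFP cells it rose by 1.18 (SE 0.14, limma adjusted p = 0.000153), at least 1.60-fold. These bounds hold only for this probe and this background correction. They compare the IFNγ mean with the untreated mean after raising each untreated value under the floor to that array's floor. Under IFNγ, where both groups were detected, PSMB8 was 7.49-fold higher with BRG1 (log2 difference 2.90, SE 0.14, limma adjusted p = 2.66e-09). These sizes rest on the background correction. Without it the differences were 2.01 for IFNγ in Ad-BRG1 cells, 0.52 for IFNγ in Ad-GFP cells and 1.67 for BRG1 under IFNγ, all still called. Without IFNγ the fitted difference was 0.30 (limma adjusted p = 0.0779), with no fold given since both groups were not above background. Several alternative settings called it, with adjusted p from 0.0101 to 0.259 over all of them.

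The interaction, the IFNγ response with BRG1 less the response with GFP alone, was 2.61 for PSMB8 (SE 0.19, limma adjusted p = 2.79e-06). It was taken against untreated groups that were both not above background. It was 2.89 with untreated values raised to the floor and 1.49 without background correction. PSMB8 thus held 2 measured levels, high with both BRG1 and IFNγ and low with IFNγ alone.

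The other PSMB8 probes gave smaller steps. Among all 16233 probes kept, 29.4% were called for IFNγ in Ad-BRG1 cells and 3.75% in Ad-GFP cells, 52.7% for BRG1 without IFNγ and 57.1% with it, and 6.57% for the interaction. Probe ILMN_1747195, to the same transcript, read 7.39, 7.15 and 7.18 in Ad-BRG1 IFNγ cells and 5.03, 4.83 and 5.08 in Ad-BRG1 untreated cells. Its Ad-GFP IFNγ values were 5.53, 5.62 and 5.24, with 2 of the 3 detected, against 4.89, 4.96 and 5.03 in Ad-GFP untreated cells. The interaction at this probe was 1.76, again with both untreated groups not above background. This probe too passed the detection filter only through Ad-BRG1 IFNγ cells, so no p-value is given and the value is a description.

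Probe ILMN_1767006, annotated to the transcript NM_148919, was detected only in Ad-BRG1 IFNγ cells, at 7.32, 7.05 and 7.49. It read 4.81 to 4.96 in Ad-BRG1 untreated cells, 4.99 to 5.12 in Ad-GFP IFNγ cells and 4.82 to 4.94 in Ad-GFP untreated cells. At this probe PSMB8 was at least 3.68-fold higher with BRG1 under IFNγ. The probe passed the detection filter only through Ad-BRG1 IFNγ cells, so its higher level there is a description and no p-value is given. The IFNγ difference in Ad-GFP cells was 0.20 (95% interval -0.014 to 0.41, limma adjusted p = 0.296), between groups that were both not above background. The remaining probe, ILMN_2284794, was detected on 0 of 12 arrays and was not tested.

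**Figure D2:**
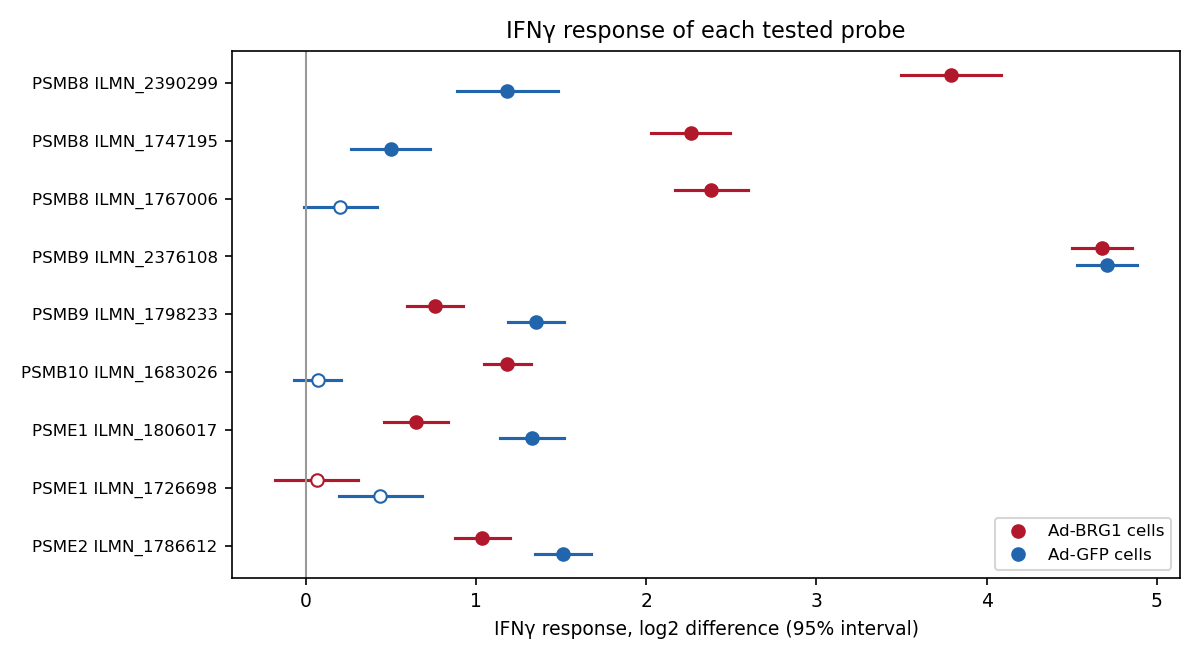
IFNγ response (x axis, log2 difference with its 95% interval) of each of the 9 tested probes (y axis), in Ad-BRG1 cells (red) and Ad-GFP cells (blue); filled points were called at an adjusted p under 0.05 over probes. The 3 PSMB8 probes and the PSMB10 probe lie farther right in Ad-BRG1 cells, whereas the PSME1 and PSME2 probes and the dimmer PSMB9 probe lie farther right in Ad-GFP cells.

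PSMB9, the subunit that takes the place of PSMB6, was strongly induced in both cell states at its bright probe. Probe ILMN_2376108 read 10.01, 10.07 and 10.03 in Ad-BRG1 IFNγ cells and 5.29, 5.38 and 5.40 in Ad-BRG1 untreated cells. It read 10.24, 10.07 and 10.11 in Ad-GFP IFNγ cells and 5.56, 5.48 and 5.27 in Ad-GFP untreated cells. Each IFNγ array was above each untreated array by a wide margin. Of the untreated arrays, 1 of 3 was detected in Ad-BRG1 cells and 2 of 3 in Ad-GFP cells.

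The response was 25.6-fold in Ad-BRG1 cells (log2 difference 4.68, SE 0.08, limma adjusted p = 2.25e-13) and 26.1-fold in Ad-GFP cells (4.71, SE 0.08, adjusted p = 1.05e-12). The untreated levels lay at or near the floor, so these folds rest on the background correction, without which the log2 differences were 2.83 in Ad-BRG1 cells and 2.89 in Ad-GFP cells. At this probe the interaction was -0.026, with a 95% interval of -0.27 to 0.22 (limma adjusted p = 0.897). Ad-BRG1 and Ad-GFP cells differed by -0.10 under IFNγ (95% interval -0.28 to 0.07, adjusted p = 0.28) and by -0.078 without it (-0.25 to 0.10, adjusted p = 0.426).

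The second PSMB9 probe, ILMN_1798233, did not give this result. It was dim, at 5.73, 5.88 and 5.77 in Ad-BRG1 IFNγ cells against 6.37, 6.39 and 6.28 in Ad-GFP IFNγ cells, with no untreated array detected. The ranges were apart, as they narrowly were at the bright probe and as they were for 65.3% of all genes. At the dim probe PSMB9 was 1.47-fold lower in Ad-BRG1 cells under IFNγ (log2 difference -0.56, SE 0.08, limma adjusted p = 5.08e-05 over probes). IFNγ raised it by 0.76 in Ad-BRG1 cells and 1.35 in Ad-GFP cells, against untreated groups not above background. The interaction was called at this probe, at -0.59 (SE 0.11, limma adjusted p = 0.00835 over probes). With the mean of both probes in place of the brighter one, PSMB9 was called lower with BRG1 under IFNγ (log2 difference -0.33, limma adjusted p = 0.00061), and the interaction was -0.31 (adjusted p = 0.051). Both probes carry the same transcript annotation, NM_002800, and which of them reads PSMB9 more faithfully was not tested.

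PSMB10, the subunit that takes the place of PSMB7, was high in every group, and its IFNγ response was called in Ad-BRG1 cells and not in Ad-GFP cells. Its single probe, ILMN_1683026, read 12.74, 12.75 and 12.76 in Ad-BRG1 IFNγ cells and 11.55, 11.55 and 11.61 in Ad-BRG1 untreated cells. The Ad-GFP IFNγ values were 12.24, 12.26 and 12.16, against 12.06, 12.19 and 12.21 in Ad-GFP untreated cells. The Ad-BRG1 groups stood at both ends of the range, and the 2 Ad-GFP groups overlapped between them.

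IFNγ raised PSMB10 by 2.27-fold in Ad-BRG1 cells (log2 difference 1.18, SE 0.06, limma adjusted p = 2.22e-08). In Ad-GFP cells the difference was 0.068 (95% interval -0.065 to 0.20, adjusted p = 0.582). The interaction was 1.12 (SE 0.09, limma adjusted p = 4.63e-06). This response began from a lower basal level: PSMB10 was 1.50-fold lower in Ad-BRG1 than in Ad-GFP cells without IFNγ (log2 difference -0.58, adjusted p = 5.06e-06). Under IFNγ it was 1.44-fold higher in Ad-BRG1 than in Ad-GFP cells (0.53, adjusted p = 1.01e-05). PSMB10 was thus lower with BRG1 in untreated cells and higher with BRG1 in stimulated cells. The net difference between Ad-BRG1 IFNγ and Ad-GFP untreated cells was 1.51-fold (0.60, limma adjusted p = 3.12e-06), a pair of groups set side by side after their values were seen.

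PSME1, which encodes PA28 alpha, rose with either BRG1 or IFNγ and was highest with both. Probe ILMN_1806017 read 12.41, 12.42 and 12.35 in Ad-BRG1 IFNγ cells and 11.91, 11.71 and 11.62 in Ad-BRG1 untreated cells. It read 11.70, 11.89 and 11.67 in Ad-GFP IFNγ cells and 10.43, 10.50 and 10.35 in Ad-GFP untreated cells. The middle groups, Ad-BRG1 untreated and Ad-GFP IFNγ, overlapped, and the other two stood clear above and below them.

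IFNγ raised PSME1 1.56-fold in Ad-BRG1 cells (log2 difference 0.64, SE 0.09, limma adjusted p = 2e-04) and 2.51-fold in Ad-GFP cells (1.33, SE 0.09, adjusted p = 5.09e-07). Without IFNγ PSME1 was 2.50-fold higher in Ad-BRG1 than in Ad-GFP cells (1.32, adjusted p = 6.34e-08), and with IFNγ 1.56-fold (0.64, adjusted p = 3.44e-05). The interaction was negative, at -0.68 (SE 0.12, limma adjusted p = 0.00566), the reverse of PSMB8 and PSMB10. Ad-BRG1 untreated cells differed from Ad-GFP IFNγ cells by -0.0048 (95% interval -0.19 to 0.18, adjusted p = 0.969), a pair also chosen after the values were seen.

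The second PSME1 probe, ILMN_1726698, annotated to the transcript NM_176783, was dim and detected on 7 of 12 arrays. It read 5.57, 5.86 and 5.52 in Ad-BRG1 IFNγ cells and 5.37, 5.63 and 5.75 in Ad-BRG1 untreated cells. It read 5.26, 5.45 and 5.52 in Ad-GFP IFNγ cells and 4.97, 4.98 and 4.98 in Ad-GFP untreated cells, where it was not detected. The BRG1 difference without IFNγ passed the test here too, at least 1.16-fold (limma adjusted p = 0.000601 over probes). Neither IFNγ response did (0.06, adjusted p = 0.699 in Ad-BRG1 cells, and 0.44, adjusted p = 0.0536 in Ad-GFP cells). The BRG1 difference with IFNγ was not called at this probe (0.24, limma adjusted p = 0.0903 over probes). Nor was the interaction, at -0.37 (limma adjusted p = 0.156 over probes), which was 0.026 with Ad-GFP untreated values raised to the floor.

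PSME2, which encodes PA28 beta, followed PSME1 with a smaller BRG1 difference. Probe ILMN_1786612 read 11.30, 11.45 and 11.50 in Ad-BRG1 IFNγ cells and 10.36, 10.39 and 10.40 in Ad-BRG1 untreated cells. It read 11.27, 11.26 and 11.07 in Ad-GFP IFNγ cells and 9.68, 9.75 and 9.64 in Ad-GFP untreated cells. The 4 groups did not overlap, although the closest arrays of the 2 IFNγ groups, 11.30 and 11.27, nearly met. These 2 groups were apart for 65.3% of all genes.

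IFNγ raised PSME2 2.05-fold in Ad-BRG1 cells (log2 difference 1.04, SE 0.07, limma adjusted p = 5.22e-07) and 2.85-fold in Ad-GFP cells (1.51, SE 0.07, adjusted p = 3.05e-08). It was 1.62-fold higher in Ad-BRG1 than in Ad-GFP cells without IFNγ (0.69, adjusted p = 5.48e-06) and 1.16-fold higher with IFNγ (0.22, adjusted p = 0.0203). The interaction was -0.47 (SE 0.10, limma adjusted p = 0.0189). The last 2 calls were fragile. The BRG1 difference under IFNγ was lost without Ad-BRG1 IFNγ replicate 2 or 3 or Ad-GFP IFNγ replicate 3 (limma adjusted p = 0.0615, 0.0803 and 0.0944). The interaction was lost without Ad-GFP IFNγ replicate 2 or Ad-GFP untreated replicate 3 (limma adjusted p = 0.0548 and 0.0537).

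**Figure D3:**
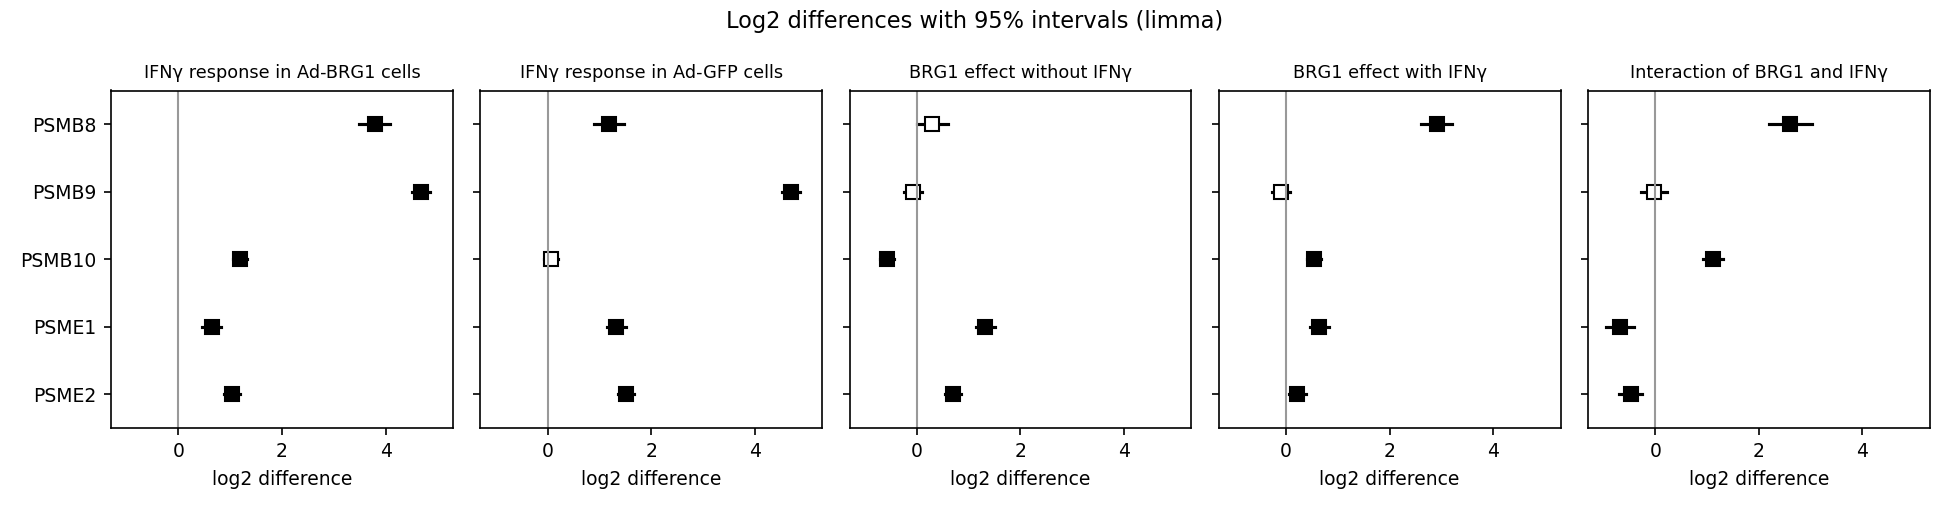
Log2 differences (x axis) with 95% intervals for the 5 genes (y axis) in the 5 comparisons, 1 panel each; filled squares were called at a limma adjusted p under 0.05 over 10333 genes. In the interaction panel PSMB8 (2.61) and PSMB10 (1.12) lie right of 0, PSME1 (-0.68) and PSME2 (-0.47) left of it, and PSMB9 on it.

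Counts of the 5 genes called are set here against the share of all genes called. In Ad-BRG1 cells 5 of 5 rose, where 13.1% of 10333 genes rose and 32.7% were called. In Ad-GFP cells 4 of 5 rose, PSMB10 being the exception, where 3.1% of genes rose and 4.07% were called. The median response of the 5 genes was 1.18 in Ad-BRG1 cells and 1.33 in Ad-GFP cells, and that of all genes was -0.04 and -0.02.

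For BRG1 the share of all genes called was high. Without IFNγ 3 of 5 were called, PSME1 and PSME2 higher and PSMB10 lower, where 57.1% of all genes were called, 26.7% higher and 30.3% lower. With IFNγ 4 of 5 were higher, where 28.3% of genes were called higher and 61.1% in all. The interaction was called for 4 of 5, with 2 higher and 2 lower, where 8.15% of all genes were called, 4.32% higher and 3.83% lower. The IFNγ and BRG1 comparisons share arrays, so these counts are not independent of each other.

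Some markers of other cell types moved with BRG1. Of 6 fibroblast markers 4 were tested, and COL1A1, PDGFRB and THY1 were higher in Ad-BRG1 cells with and without IFNγ. LUM was called in neither state, at -0.02 without IFNγ and -0.09 with it. The summed raw intensity over the fibroblast list was 2230 to 2418 in Ad-BRG1 IFNγ cells and 1723 to 1793 in Ad-GFP IFNγ cells, and 2663 to 3074 in Ad-BRG1 untreated cells and 1791 to 1955 in Ad-GFP untreated cells. COL1A2 was detected on 0 arrays and DCN on 3. The part of this in the BRG1 differences of PSME1, PSME2 and PSMB10 was not tested. Of the 9 leukocyte markers on the array 4 were detected on any array, and the 1 tested, CD68, was higher with BRG1 in both states. The summed leukocyte list read 4017 to 4304 in Ad-BRG1 IFNγ cells and 3460 to 3797 in Ad-GFP IFNγ cells, and 4490 to 4882 in Ad-BRG1 untreated cells and 3550 to 3956 in Ad-GFP untreated cells, with PTPRC and CD14 detected on 1 array each and CD3E, ITGAM, NKG7, SPI1 and LAPTM5 on 0. Of 5 endothelial markers 3 were detected on any array and 2 were tested. TEK was higher with BRG1 in both states. PECAM1 was called in neither, at -0.12 without IFNγ and -0.19 with it, and CDH5 and KDR were detected on 0 arrays. With IFNγ, CYP11A1 rose and TEK and THY1 fell in Ad-BRG1 cells, and no tested marker of these lists was called in Ad-GFP cells.

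The constitutive subunits that the immunoproteasome subunits replace were not called for IFNγ. In Ad-BRG1 cells the IFNγ difference was -0.04 for PSMB5, 0.04 for PSMB6 and -0.13 for PSMB7, with 95% intervals inside -0.32 to 0.20. In Ad-GFP cells it was -0.011, -0.0078 and -0.017, with intervals inside -0.20 to 0.17. In either state 0 of 3 were called, where 32.7% of all genes were called in Ad-BRG1 cells and 4.07% in Ad-GFP cells. PSMB6 was the one called lower with BRG1, at -0.55 without IFNγ and -0.50 with it. No fall of a counterpart passed the test where PSMB8 and PSMB9 rose.

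For other proteasome subunits, the counts called are set against the shares of all genes. In Ad-BRG1 cells IFNγ raised 13.1% of all genes and lowered 19.6%, and in Ad-GFP cells 3.1% and 0.977%. Of 10 other core subunits tested, IFNγ raised 1 and lowered 1 in Ad-BRG1 cells and raised 1 in Ad-GFP cells, all by less than 0.5 on the log2 scale. Of 19 subunits of the 19S regulatory particle, which unfolds ubiquitinated substrates, 1 rose and 4 fell in Ad-BRG1 cells and 1 rose in Ad-GFP cells. For BRG1, 0 of the 10 core subunits were higher and 3 lower without IFNγ, and 1 higher and 3 lower with it. Of the 19S subunits 1 was higher and 4 lower without IFNγ, and 3 higher and 5 lower with it. Of all genes 26.7% were called higher and 30.3% lower without IFNγ, and 28.3% higher and 32.8% lower with it. PSMD1, a scaffold subunit, fell by 0.58 in Ad-BRG1 cells (limma adjusted p = 0.00257), and PSMD12 was higher with BRG1 by 0.53 without and 0.54 with IFNγ. PSMA2, of the alpha ring, was lower with BRG1 without IFNγ, at -0.55 (adjusted p = 0.00033).

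The other activators were not called for IFNγ. PSME3, which encodes the nuclear PA28 gamma, had IFNγ differences of -0.17 in Ad-BRG1 cells and -0.11 in Ad-GFP cells, neither called. PSME4, which encodes the activator PA200, had 0.06 and 0.01, not called, yet was higher with BRG1 by 0.62 without and 0.66 with IFNγ. PSMF1, the inhibitor PI31, was detected on no array. POMP, the chaperone that assembles new cores, was not called for IFNγ in either state.

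**Figure D4:**
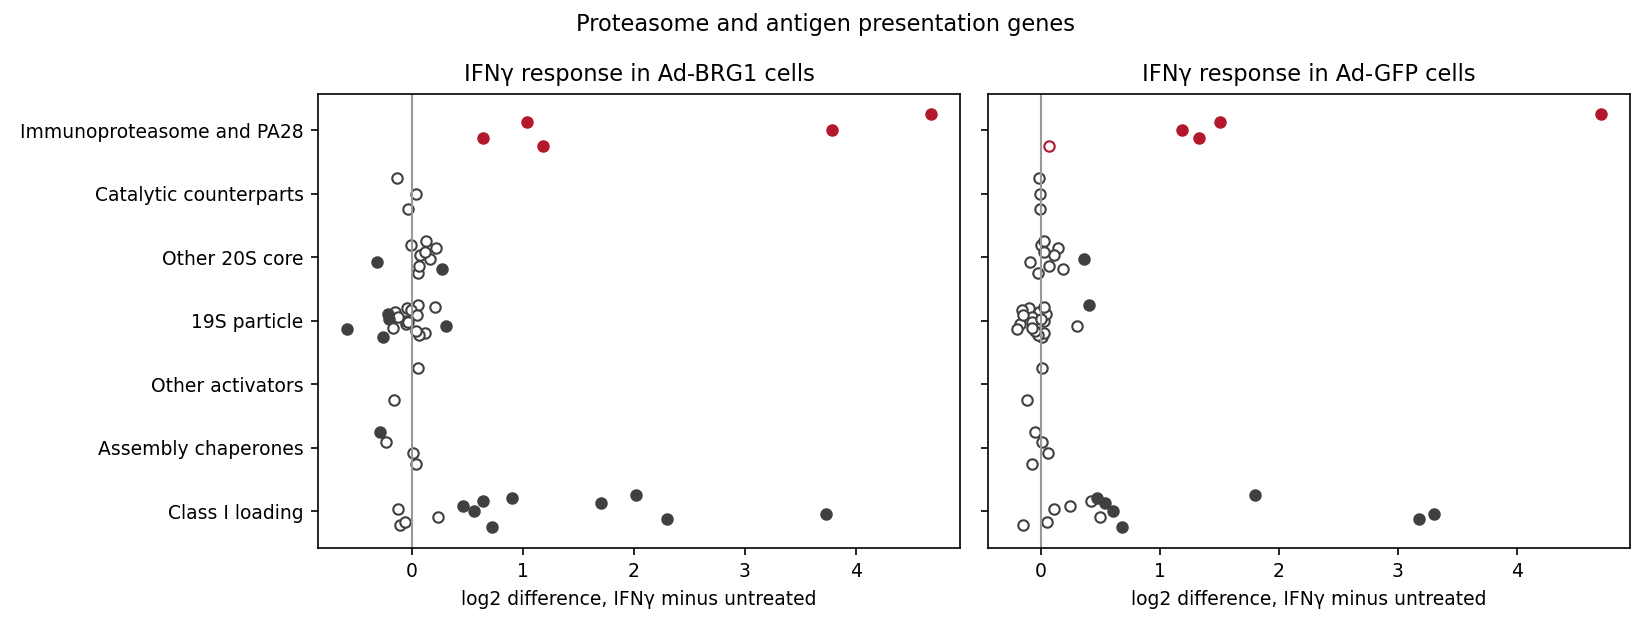
IFNγ response (x axis, log2 difference) of each tested gene of 7 proteasome and antigen presentation lists (y axis), in Ad-BRG1 cells (left) and Ad-GFP cells (right); filled points were called at a limma adjusted p under 0.05 over 10333 genes, and the vertical offset within a list only separates points. The 5 immunoproteasome and PA28 genes (red) and part of the class I loading genes extend to the right, and the other proteasome lists stay near 0.

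Genes acting after the proteasome in antigen presentation responded alongside. Of 13 peptide trimming, transport and class I genes tested, IFNγ raised 9 in Ad-BRG1 cells, where 13.1% of all genes rose. In Ad-GFP cells it raised 7, where 3.1% of all genes rose, and it lowered 0 of the 13 in either. The interaction was called higher for 3 of the 13 and lower for 1, HLA-E (-0.88). Over all genes it was called higher for 4.32% and lower for 3.83%. TAP1, the neighbour of PSMB9, rose 13.3-fold in Ad-BRG1 cells and 9.88-fold in Ad-GFP cells, with an interaction of 0.43 (SE 0.10, limma adjusted p = 0.0266). TAP2, the other transporter chain, rose by 2.02 in Ad-BRG1 cells and 1.80 in Ad-GFP cells and was lower with BRG1 without IFNγ, at -0.68. B2M, the light chain of class I molecules, rose by 0.72 in Ad-BRG1 cells and 0.68 in Ad-GFP cells, and TAPBP, which loads peptide, by 0.56 and 0.61. HLA-E rose by 2.30 in Ad-BRG1 cells and 3.18 in Ad-GFP cells, and HLA-B by 1.70 and, from a group not above background, at least 0.33, although probes of class I genes can share targets.

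Among 12 IFNγ signalling genes tested, 9 rose in Ad-BRG1 cells and 6 in Ad-GFP cells, where 13.1% and 3.1% of all genes rose. The interaction was called, and positive, for 4 of the 12: SOCS1 (2.40), JAK2 (1.53), IRF8 (1.16) and CIITA (0.52). Over all genes it was called higher for 4.32%. For SOCS1 and IRF8 1 group was not above background, and for CIITA 3 groups were not. With the values of those groups raised to the floor, the interactions were 2.72 for SOCS1, 1.44 for IRF8 and 0.17 for CIITA. CIITA passed the detection filter only through Ad-BRG1 IFNγ cells, so its call is a description. IRF1, the transcription factor known to act on these promoters, averaged 13.76 ± 0.09 in Ad-BRG1 IFNγ cells and 8.52 ± 0.10 in Ad-BRG1 untreated cells, and 13.16 ± 0.07 in Ad-GFP IFNγ cells and 7.95 ± 0.08 in Ad-GFP untreated cells (SD, n = 3). Its response was 5.24 in Ad-BRG1 cells and 5.21 in Ad-GFP cells, with an interaction of 0.034 (95% interval -0.19 to 0.26, limma adjusted p = 0.852). IRF9, a transcription factor of interferon signalling, rose by 3.41 in Ad-BRG1 cells and 3.31 in Ad-GFP cells. JAK2, a kinase of the IFNγ receptor, rose by 1.84 in Ad-BRG1 cells and was not called in Ad-GFP cells, with an interaction of 1.53 (limma adjusted p = 0.000445). Its mean in Ad-BRG1 untreated cells, 5.19, lay under the floor, with 1 of 3 arrays detected. Without IFNγ JAK2 was called lower with BRG1, at -0.38 (limma adjusted p = 0.0301). Of 7 housekeeping genes, 0 were called for IFNγ in either state, where 32.7% of all genes were called in Ad-BRG1 cells and 4.07% in Ad-GFP cells.

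IFNγ raised all 5 members in Ad-BRG1 cells and all but PSMB10 in Ad-GFP cells. Interactions differed in sign among the members that hold the 12-letter repeat, and any part of the repeat in this was not tested. Those of PSMB8, which holds it at its second start, and of PSMB10 were positive. Those of PSME1, at its bright probe, and of PSME2, which hold it too, were negative. PSMB9, which does not, had none that passed the test at its bright probe and a negative one at its dim probe. Of the 12 other genes with the repeat in a window, 6 were tested, and TAP2, FAM111A, MYD88 and RNF31 rose with IFNγ in both states, where 13.1% of all genes rose in Ad-BRG1 cells and 3.1% in Ad-GFP cells. FAM111A, a nuclear protease gene, rose by 1.20 in Ad-BRG1 cells and 0.88 in Ad-GFP cells. MYD88, an adaptor of Toll-like receptors, rose by 0.48 in Ad-BRG1 cells and 0.60 in Ad-GFP cells. The RNF31 window overlaps that of PSME2 on the other strand, so the repeat is the same one there. EARS2 was called lower in Ad-BRG1 cells, at -0.29 (limma adjusted p = 0.0355), where 19.6% of all genes fell. It was not called in Ad-GFP cells, at -0.17. UBFD1 was called in neither, at -0.16 in Ad-BRG1 cells and 0.0034 in Ad-GFP cells. None of the interactions of these 6 genes was called.

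The 5 genes had different nearest neighbours over the 12 arrays, by the root mean square difference between log2 profiles centred on their own means. PSMB8 was nearest to CD274, the gene of PD-L1 (0.27), SOCS1, an inhibitor of JAK kinases (0.33), and MLKL, an executor of necroptosis (0.45). PSMB9 was nearest to IRF1 (0.44), UBE2L6, the conjugating enzyme for ISG15 (0.54), and the transcription factor BATF2 (0.77).

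PSMB10 was nearest to TIA1, an RNA-binding protein gene (0.17), USP42, a deubiquitinase gene (0.17), and ASPHD2 (0.17), all with IFNγ differences larger in Ad-BRG1 than in Ad-GFP cells. PSME1 was nearest to FZD5, a Wnt receptor gene (0.22), HEG1 (0.28) and IL10RB, a cytokine receptor chain (0.29). PSME2 was nearest to CASP1, the inflammasome protease (0.13), ISG15, a ubiquitin-like modifier (0.14), and STAT3 (0.21). Among the members PSME1 and PSME2 were the closest pair (0.32), whose starts lie 10416 bases apart on chromosome 14. PSMB8 and PSMB9, also neighbours, on chromosome 6, differed by 1.55.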

How the data were processed

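Total RNA of 12 SW-13 cultures was hybridized to Illumina Human-WG6 BeadChips. The deposited raw values are probe intensity on a linear scale as read by BeadStudio (version not given in the sources used here), with no background subtraction or normalization, each with the authors' detection p-value. The deposited normalized set is intensity after average normalization by the authors. It equalled the raw set times 1 constant per array (0.924 to 1.14) and served as an alternative. All columns belonged to samples of the series (0 did not). Groups and replicate numbers came from the sample titles. Precision is limited by having 3 arrays in a group.

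Probes were named through the array annotation: 27578 had 1 symbol, 13 several and 21212 none, and 27541 were matched to a current gene table, with 0 symbols changed. Intensities were background-corrected, quantile-normalized and put on the log2 scale with neqc (offset 16) from limma 3.58.1, run in R 4.3.3. Probes were kept (16233) if detected, at a detection p under 0.05, throughout any 1 group, and the brightest probe stood for each of 10333 genes. All 12 arrays entered 1 linear model of group means (lmFit and eBayes, two-sided, 8 residual and 4.24 prior degrees of freedom). Adjusted p is Benjamini-Hochberg over all genes tested, or over all probes kept where so stated, with a threshold of 0.05 for a call. The procedure was tested on simulated data. Where no array of a group was detected, a level was raised on each array to the lowest value among detected probes. This makes the fold a bound for that probe and background correction, given as at least.

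Named were the 5 genes with every probe and the 3 genes nearest each member. Counts over proteasome, antigen presentation and IFNγ signalling lists were given with some, not all, of the called genes of at least 0.5 in log2 difference. The members and lists were chosen with earlier results of these data known. Promoter windows were taken from RefSeq (GRCh38.p14), and PSMB6 and PSMB7 were not used there. Alternatives were the authors' normalization, no background correction, an offset of 50, other detection filters, the mean of all probes, a replicate block, only the groups compared, a robust intensity-dependent prior, and each array left out. Figures used Python 3.11.15 and matplotlib 3.10.9.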

Additional observations from a re-analysis of the deposited data

Results flagged for a closer look

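The IFNγ response of 4 of the 5 genes differed between Ad-BRG1 and Ad-GFP cells by the interaction term of the limma fit, where 8.15% of all genes were called. The difference in response, Ad-BRG1 minus Ad-GFP, was 2.61 on the log2 scale for PSMB8 (limma adjusted p = 2.79e-06) and 1.12 for PSMB10 (adjusted p = 4.63e-06). It was -0.68 for PSME1 at its bright probe (adjusted p = 0.00566) and -0.47 for PSME2 (adjusted p = 0.0189). The dim PSME1 probe gave -0.37, not called (limma adjusted p = 0.156 over probes). Both untreated groups were not above background for PSMB8. With 3 arrays in a group no test for outlying arrays was run, but the model was refitted with each array left out.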

How the results depend on the processing

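Over the alternatives, 528 of the values for single genes kept their direction and side of the threshold, 6 gained a call, 6 lost one and 3 changed sign. The changes of sign were all at PSMB9 and none was called: the BRG1 difference without IFNγ was 0.0065 with the authors' normalization, and the interaction ran between -0.087 and 0.057 with 1 array left out, at 0.024 without Ad-GFP IFNγ replicate 1 and 0.057 without Ad-GFP untreated replicate 3. The interaction over all genes, 842 calls, had 1270 with the authors' normalization and 1483 without background correction, and 351 to 1594 with 1 array left out. The IFNγ response had 3379 calls in Ad-BRG1 cells (2093 to 3677 with 1 array left out, lowest without Ad-BRG1 untreated replicate 1, and 2228 without Ad-BRG1 IFNγ replicate 3) and 421 in Ad-GFP cells (274 to 459, lowest without Ad-GFP untreated replicate 2, and 275 without replicate 3). Of the 5 genes, 3 to 4 were called for the interaction with 1 array left out. The share of called genes that were higher in the IFNγ response of Ad-BRG1 cells was 40.1%, and 53.2% with the authors' normalization. The PSMB8 difference without IFNγ was called with the authors' normalization (adjusted p = 0.0101), without background correction (0.0445), without Ad-GFP IFNγ replicate 3 (0.0398) and without Ad-BRG1 untreated replicate 3 (0.0211), and the PSME2 difference under IFNγ was lost with only the groups compared (0.0543). The cause of these changes was not tested. Dim levels depended on the background correction: without it the PSMB8 response in Ad-BRG1 cells was 2.01, its BRG1 difference under IFNγ 1.67 and its interaction 1.49, and with the authors' normalization 2.14, 1.82 and 1.60. With the mean of all detected probes the response in Ad-BRG1 cells was 2.72 for PSMB9 and 0.35 for PSME1.

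Replicate numbers were not taken to pair the arrays, since no label says that they do and not every same-number pair had deviations correlated above 0.1. Of 18 pairs 9 did (-0.19 to 0.44), and 7 of 12 arrays correlated best with their own number, a hint from the data. With the replicate number as a block the interaction had 1338 calls, the PSMB8 difference without IFNγ was called (adjusted p = 0.0372), and no other call of the 5 genes changed. A BeadChip block was not run, since no label gives the chip.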
